A study of Mus musculus with 12 samples.

Results

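Classical and alternative activation genes were examined in alveolar macrophages of mice after liver resection. The set was named by symbol and holds 9 genes: Nos2, Cd80, Cd86, Cd40, Cd38 and Irf5 as classical members, and Arg1, Retnla and Irf4 as alternative members. Of these, 8 had a probe set among the 19505 genes with a single symbol, 5 classical and 3 alternative, each with 1 probe set. Cd38, an enzyme on the cell surface that consumes NAD, had no probe set under its symbol or identifiers in the probe annotation used here, so no level is given for it.

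Macrophages that meet interferon-gamma and microbial products take up a state called classical activation, with nitric oxide made from arginine by Nos2, the costimulatory ligands Cd80 and Cd86 and the receptor Cd40 at the surface, and the transcription factor Irf5. Interleukin 4 and interleukin 13 act through Stat6 and give alternative activation, with the arginine-cleaving enzyme Arg1, the secreted protein Retnla and the transcription factor Irf4. Nos2 and Arg1 use the same substrate. Alveolar macrophages live in the airspaces, depend on Pparg, and in mice carry Siglec-F, a lectin that binds sialic acid.

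The cells came from the lungs of male C57 Black mice and were taken with magnetic beads carrying an antibody to Siglec-F. Mice whose liver was left intact were set beside mice that had lost 70% of it 1, 3 or 7 days earlier, with 3 arrays per group, described as biological replicates. All groups were male and carried no named allele. Age and the number of animals per array are not given in the sources used here, and no group with a sham operation was among the samples used, so resection and surgery cannot be told apart. Eosinophils in mice also carry Siglec-F, and the beads do not exclude them.

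RNA was hybridised to Clariom S mouse arrays, and all levels below are the deposited log2 signals, which ran from 1.41 to 12.79 over the 22206 probe sets tested. The probes of intron controls give a scale for background: the level that 2.5% of them exceed lay between 5.97 and 6.72 on the 12 arrays, and a value above that level on its own array is called above the intron limit here. Exon controls stood less clear of intron controls on 3 arrays, with an area under the receiver curve of 0.809 to 0.837 (1 where all exon controls are brighter), than on the other 9, with 0.852 to 0.888. Those weakly separating arrays were replicate 2 of day 1, replicate 1 of day 3 and replicate 2 of day 7. Dap, a control RNA for labelling, read 6.47 to 7.77 on replicate 1 of day 3 and on replicates 2 and 3 of day 7, and 2.13 to 2.89 elsewhere. BioB, another control, read 8.65, 10.29 and 8.62 on day 1 replicates 1, 2 and 3 and 8.19 to 8.55 at day 7. It read 7.53 to 7.72 in intact mice and 7.44 to 7.83 at day 3, so all day 1 and day 7 arrays were above all intact arrays. Day 1 replicate 2 had the lowest value of the 12 arrays for 5 of the 8 members (Cd80, Cd86, Cd40, Retnla and Irf4). Markers of the labelled cell type were detected: all 14 measured of 16 alveolar macrophage markers had means over the 12 arrays above the highest intron limit, 6.72. Siglecf averaged 8.79, 8.33, 8.54 and 8.73 in the intact, day 1, day 3 and day 7 groups. Markers of other cells were detected too. By the same measure, 8 of 12 neutrophil, 3 of 12 alveolar epithelium and 2 of 8 airway epithelium markers had means above the limit. So did 2 of 10 monocyte and interstitial macrophage, 2 of 5 eosinophil and 1 of 9 endothelial markers. The count was 0 for dendritic, B and plasma, T and NK, and fibroblast markers, but a mean over 12 arrays can hide single arrays or groups. On their own arrays, the fibroblast markers Dcn and Npnt were above the intron limit on 5 and 4 arrays, with intact means of 7.29 and 6.89. Il7r was above it on 2 arrays, Gzma and Ccr7 on 1 each, and the other markers of these lists on none.

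Promoter sequences of Cd80 and Retnla are shown because these are the classical and the alternative member with the widest group differences that the RefSeq promoter table covers. The table, on build GRCm38.p6, held 5 of the 9 members (Cd38, Cd80, Irf4, Irf5 and Retnla) with 250 bases before and 50 bases after the start. The Cd80 window lies on the plus strand at chr16:38458683-38458982 and the Retnla window on the plus strand at chr16:48842359-48842658. Capitals mark matches to the motifs searched.
Cd80: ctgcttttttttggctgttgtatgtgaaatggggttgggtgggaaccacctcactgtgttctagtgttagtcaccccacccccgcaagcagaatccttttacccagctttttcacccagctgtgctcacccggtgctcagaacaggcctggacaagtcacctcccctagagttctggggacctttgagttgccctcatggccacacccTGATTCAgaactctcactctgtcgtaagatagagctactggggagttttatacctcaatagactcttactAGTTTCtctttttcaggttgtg
Retnla: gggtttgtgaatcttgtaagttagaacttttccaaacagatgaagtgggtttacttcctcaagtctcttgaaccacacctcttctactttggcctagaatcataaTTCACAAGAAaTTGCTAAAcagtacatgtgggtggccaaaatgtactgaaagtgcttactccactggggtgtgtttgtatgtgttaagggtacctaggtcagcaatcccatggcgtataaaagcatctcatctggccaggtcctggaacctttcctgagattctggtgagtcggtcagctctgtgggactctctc
In the Retnla window the capitals are TTCACAAGAA, a match to the STAT6 motif (TTC, 4 bases of any kind, GAA) at bases -145 to -136 from the start, and TTGCTAAA, a match to the C/EBP motif TTGCNNAA at bases -134 to -127. Stat6 is the factor activated by interleukin 4, and C/EBP factors are known to act with it on the mouse Retnla gene. In the Cd80 window the capitals are TGATTCA, a match to the AP-1 motif TGANTCA at bases -42 to -36, and AGTTTC, the core GAAACT of interferon response elements on the minus strand, at bases 29 to 34. The same core lay at bases 7 to 12 of the Irf4 window. Over all 32851 promoters of that length, read on both strands, the STAT6 motif was found in 6.95%, the C/EBP motif in 10.8%, the AP-1 motif in 7.81% and the GAAACT core in 15.8%. Neither the interferon-gamma motif TTCNNNGAA, found in 8.3% of promoters, nor the NF-kB motif, found in 4.51%, occurred in the 5 windows. A match is only a run of letters and was not tested for binding.

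No member passed the test in any comparison when all arrays were weighted equally, and Cd40 alone passed in other settings given with it. With limma and Benjamini-Hochberg adjustment over all 22206 probe sets, 0 of the 8 members had an adjusted p under 0.05 at day 1, at day 3 or at day 7 against intact, where 0%, 0.0045% and 0.018% of all probe sets passed. The count was also 0 in each comparison between days, where 0% of probe sets passed, and 0 in the F test over the 4 groups, where 0.00901% passed. Exact permutation of 3 against 3 arrays cannot give a two-sided p below 0.10, so all tests rest on limma's pooled spread. The plot of member values shows the 12 arrays.

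**Figure D1:**
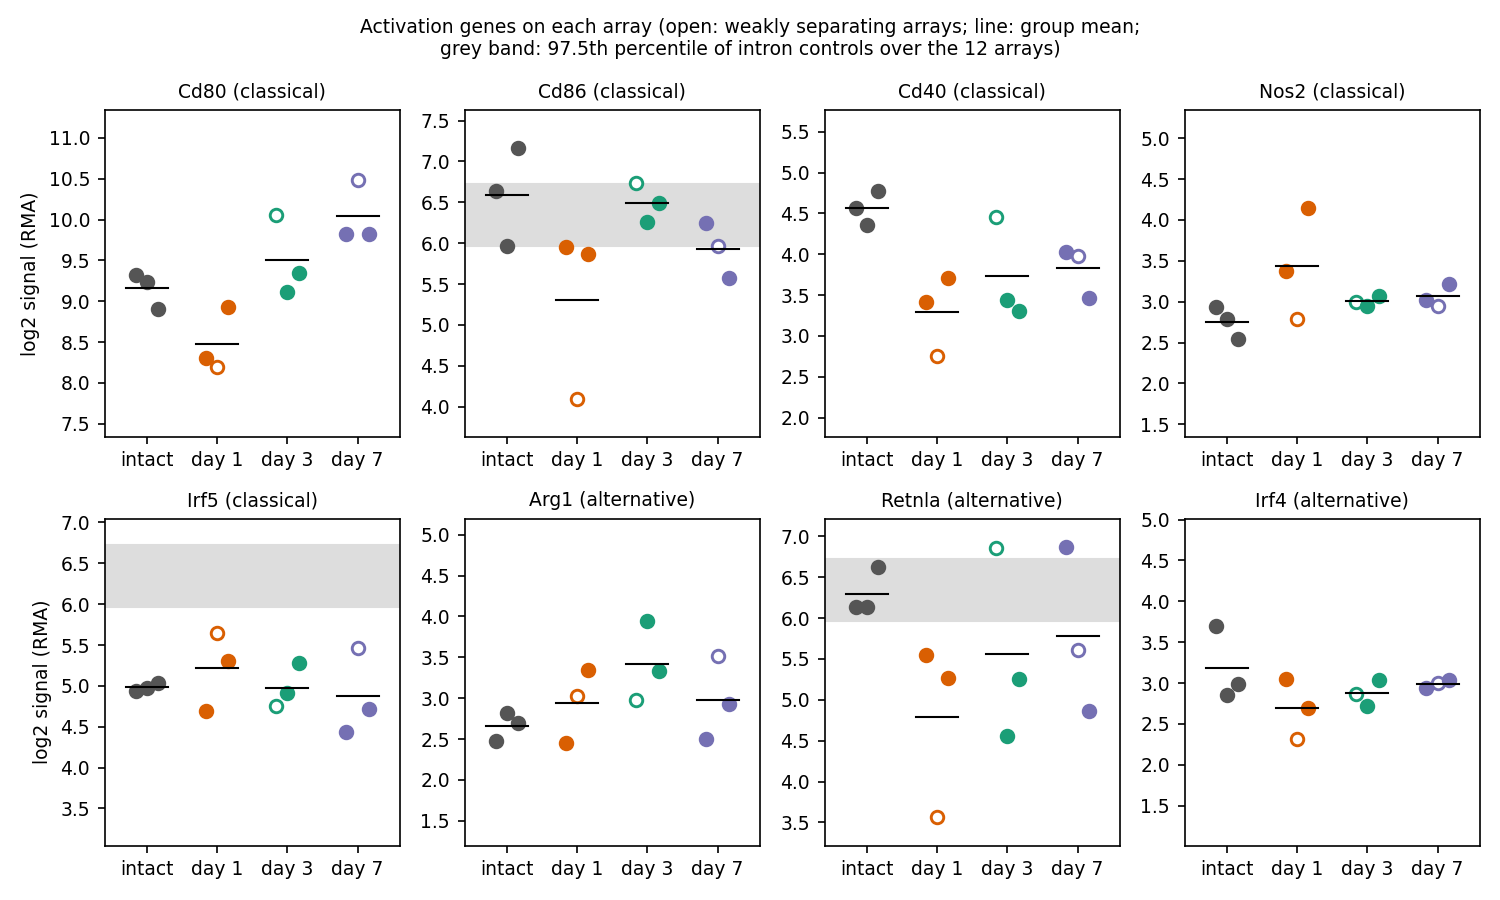
Log2 signal (vertical axis) of the 8 measured members on each array, by group, with a line at the group mean, open circles for the weakly separating arrays and a grey band over the range of the intron limit. Cd80 is the 1 member above the intron limit on all 12 arrays, and its day 7 values (9.82 to 10.48) lie above its intact values (8.91 to 9.32).

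Cd80 and Cd86 are ligands of the T cell receptors Cd28 and Ctla4. Cd80 was the 1 member that stood well clear of background, above the intron limit on 12 of 12 arrays and between percentiles 99.0 and 99.6 of the intron controls. Its log2 signal was 9.32, 9.24 and 8.91 in intact mice, 8.30, 8.20 and 8.93 at day 1, 10.05, 9.11 and 9.34 at day 3, and 9.82, 10.48 and 9.82 at day 7. The day 7 arrays were all above the intact arrays, while the day 1 arrays reached 8.93 and overlapped the intact group. The means were 9.16 ± 0.22, 8.48 ± 0.39, 9.50 ± 0.49 and 10.04 ± 0.39 for intact, day 1, day 3 and day 7 (SD, n = 3 each), so the day 1 mean was lowest and the day 7 mean highest. Against intact, the log2 difference was -0.68 ± 0.28 at day 1, 0.34 ± 0.28 at day 3 and 0.88 ± 0.28 at day 7 (SE), with limma's adjusted p at 0.534, 1 and 0.589.

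Between days, Cd80 was 2.95-fold higher at day 7 than at day 1, a log2 difference of 1.56 ± 0.28 (SE), and the 3 day 7 arrays were all above the 3 day 1 arrays. The unadjusted p of that difference was 0.000116 in limma, and the adjusted p was 0.573, in a comparison where 0% of all probe sets passed. At day 3 against day 1 the log2 difference was 1.02 ± 0.28 (SE), with no overlap and an adjusted p of 0.377 in limma. Groups did not overlap, in the higher direction, for 4.55% of probe sets at day 7 against day 1 and for 7.03% at day 3 against day 1. The neighbours in the order of means (day 1, intact, day 3, day 7) overlapped, except that day 3 and day 7 did so only through day 3 replicate 1.

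Of the Cd80 arrays, day 3 replicate 1 (10.05) and day 7 replicates 2 and 3 (10.48 and 9.82) carried the labelling control dap. On the arrays without it, Cd80 read 8.91 to 9.32 in intact mice, 9.11 and 9.34 at day 3, and 9.82 on the 1 day 7 array. With dap as a block the difference at day 7 against intact was 0.50 and that at day 7 against day 1 was 1.18. The day 3 difference from intact was 0.15 with the block and 0.072 without day 3 replicate 1, which was both a weakly separating array and one with dap. Without the 3 weakly separating arrays the differences at day 7 against intact and against day 1 were 0.66 and 1.20, with adjusted p in limma at 0.194 and 0.189. The part of the labelling control in the Cd80 values was not tested beyond these fits.

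Cd86 followed another order. It read 6.64, 5.96 and 7.17 in intact mice, 5.95, 4.09 and 5.87 at day 1, 6.74, 6.26 and 6.49 at day 3, and 6.25, 5.96 and 5.58 at day 7, and it was above the intron limit on 5 of 12 arrays. All 3 day 1 arrays were below the lowest intact array, by a margin far smaller than the spread within either group, and the day 7 values were below all day 3 values. The means were 6.59 ± 0.60, 5.30 ± 1.05, 6.49 ± 0.24 and 5.93 ± 0.33 for intact, day 1, day 3 and day 7 (SD, n = 3 each). Against intact, the log2 difference was -1.29 ± 0.44 at day 1 (adjusted p 0.424 in limma), -0.10 at day 3 and -0.66 ± 0.44 at day 7 (adjusted p 0.996). When day 1 replicate 2, a weakly separating array, was left out, the day 1 difference was -0.68.

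Set against its own intact mean, each array's Cd80 value can be laid beside its Cd86 value. The deviation of Cd80 minus that of Cd86 was 0.11, 0.71 and -0.82 in intact mice, -0.21, 1.54 and 0.50 at day 1, 0.75, 0.29 and 0.29 at day 3, and 1.00, 1.96 and 1.67 at day 7. The 3 day 7 arrays were above all intact and day 3 arrays, while day 1 replicate 2 lay among them. This difference of deviations was not tested. It shows unequal values of the 2 probe sets and no level of one protein ligand against the other.

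**Figure D2:**
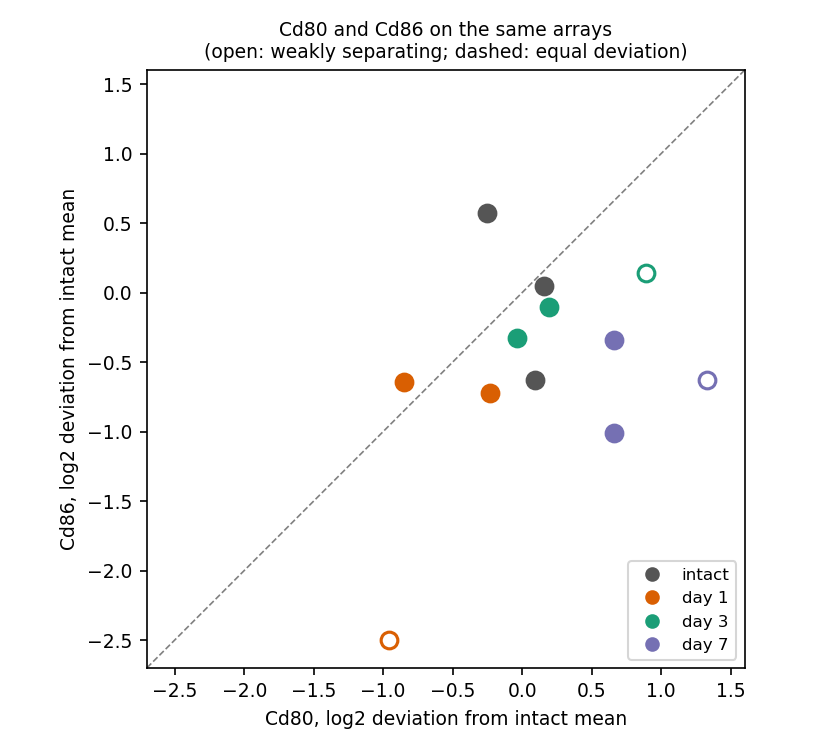
Deviation of Cd80 (horizontal axis) and Cd86 (vertical axis) from their intact means on the log2 scale, 1 point per array, with open circles for the weakly separating arrays and a dashed line where both deviations are equal. The day 7 arrays lie between 0.66 and 1.33 for Cd80 and between -1.01 and -0.34 for Cd86, whereas all day 1 arrays are negative for both genes.

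Cd40, a receptor of the tumor necrosis factor family that is engaged by Cd40lg on T cells, had the smallest unadjusted p of the members at day 1. Its values were 4.56, 4.36 and 4.78 in intact mice, 3.42, 2.75 and 3.71 at day 1, 4.45, 3.44 and 3.31 at day 3, and 4.03, 3.98 and 3.47 at day 7. All day 1 and day 7 arrays were below the lowest intact array, and at day 3 only replicate 1 reached the intact range. Against intact, the log2 difference was -1.28 ± 0.32 at day 1, -0.84 ± 0.32 at day 3 and -0.74 ± 0.32 at day 7 (SE), with limma's adjusted p at 0.286, 1 and 0.827. Every value lay below the intron limit, between percentiles 49.7 and 93.1 of the intron controls, so these are differences between values within the range of the intron controls.

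Cd40 was also the 1 member whose call depended on how the weak arrays were treated. With array weights in limma its difference at day 3 against intact was -1.06 with an adjusted p of 0.0237, and without the 3 weakly separating arrays it was -1.19 with an adjusted p of 0.0178. Far more probe sets passed in those fits than with equal weights: 298 of 22206 (1.34%) with array weights and 252 (1.13%) without the 3 arrays. Cd40 also passed the F test in both settings, beside 1.62% of probe sets with array weights and 1.27% without the 3 arrays. It was the 1 member of 8 that passed there, and these counts do not single it out. Day 3 replicate 1, the array that held Cd40 at 4.45, is 1 of the 3 arrays left out there. The remaining day 3 arrays read 3.44 and 3.31, and in those fits the adjusted p at day 1 was 0.097 with weights and 0.0685 without the arrays.

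Nos2, the inducible nitric oxide synthase, stayed below the intron limit on all 12 arrays. It read 2.93, 2.79 and 2.54 in intact mice, 3.38, 2.79 and 4.15 at day 1, 3.00, 2.95 and 3.07 at day 3, and 3.02, 2.95 and 3.22 at day 7. The highest value was day 1 replicate 3, and day 1 replicate 2 lay within the intact range. The log2 difference from intact was 0.69 ± 0.27 at day 1 (SE, adjusted p 0.506 in limma), 0.25 at day 3 and 0.31 at day 7. Leaving out day 1 replicate 3 gave 0.33 at day 1, and leaving out replicate 2 gave 1.01. The day 3 and day 7 arrays were all above the intact arrays, within a range where the intron controls also lie (percentiles 51.6 to 88.8).

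Irf5, a transcription factor that drives inflammatory cytokine genes, had the smallest difference from intact of the 8 members at each day. It read 4.94, 4.98 and 5.04 in intact mice, 4.69, 5.65 and 5.30 at day 1, 4.75, 4.91 and 5.28 at day 3, and 4.44, 5.46 and 4.72 at day 7. The intact arrays lay within the range of each resected group. The log2 difference from intact was 0.23 at day 1, 0.00 at day 3 and -0.11 at day 7 with an SE of 0.28, and its sign at days 3 and 7 depended on the normalization and the arrays included.

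Among the alternative members, Retnla had the widest range, 3.31 log2 units over the 12 arrays. This small secreted protein of the resistin-like family, also named Fizz1 or Relm-alpha, is made by mouse macrophages and airway epithelium after interleukin 4 or 13. Its values were 6.14, 6.13 and 6.63 in intact mice, 5.55, 3.56 and 5.27 at day 1, 6.86, 4.56 and 5.25 at day 3, and 6.87, 5.61 and 4.86 at day 7, and 3 of 12 were above the intron limit. All day 1 arrays were below the intact arrays, and days 3 and 7 each held 1 array above the intact group and 2 below it. The group means were 6.30 ± 0.29, 4.79 ± 1.08, 5.56 ± 1.18 and 5.78 ± 1.01 for intact, day 1, day 3 and day 7 (SD, n = 3 each), so the SD was 1.01 or more after resection, against 0.29 in intact mice. Against intact, the log2 difference was -1.50 ± 0.64 at day 1 (adjusted p 0.545 in limma), -0.74 ± 0.64 at day 3 and -0.52 ± 0.64 at day 7 (SE). Single arrays moved these values: at day 1 the difference was -0.89 without replicate 2 of that day, at day 3 it ran from -1.39 without replicate 1 to -0.24 without replicate 2, and at day 7 from -1.06 without replicate 1 to -0.06 without replicate 3.

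Arg1, arginase 1, was below the intron limit on all 12 arrays. It read 2.48, 2.82 and 2.69 in intact mice, 2.45, 3.03 and 3.34 at day 1, 2.98, 3.94 and 3.33 at day 3, and 2.50, 3.52 and 2.93 at day 7. Only the day 3 arrays were all above the intact arrays. The log2 difference from intact was 0.28 ± 0.31 at day 1, 0.75 ± 0.31 at day 3 and 0.32 ± 0.31 at day 7 (SE), with limma's adjusted p at 0.793, 1 and 1. The difference was 0.076 at day 1 without replicate 3 of that day, and 0.49 at day 3 and 0.053 at day 7 without replicate 2 of those days. As for Nos2, this range is one that intron controls also fill (percentiles 49.7 to 84.7), so neither enzyme of the arginine branch point was detectable above background on any of the 12 arrays.

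Irf4, a transcription factor downstream of interleukin 4 in mouse macrophages, read 3.70, 2.85 and 2.99 in intact mice, 3.05, 2.32 and 2.70 at day 1, 2.86, 2.72 and 3.04 at day 3, and 2.94, 3.00 and 3.04 at day 7. The groups overlapped throughout, and intact replicate 1 alone lay apart at the top. The log2 difference from intact was -0.49 ± 0.24 at day 1, -0.30 ± 0.24 at day 3 and -0.18 ± 0.24 at day 7 (SE), and 0 of 12 values were above the intron limit. Without intact replicate 1 these differences were -0.23, -0.045 and 0.077.

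**Figure D3:**
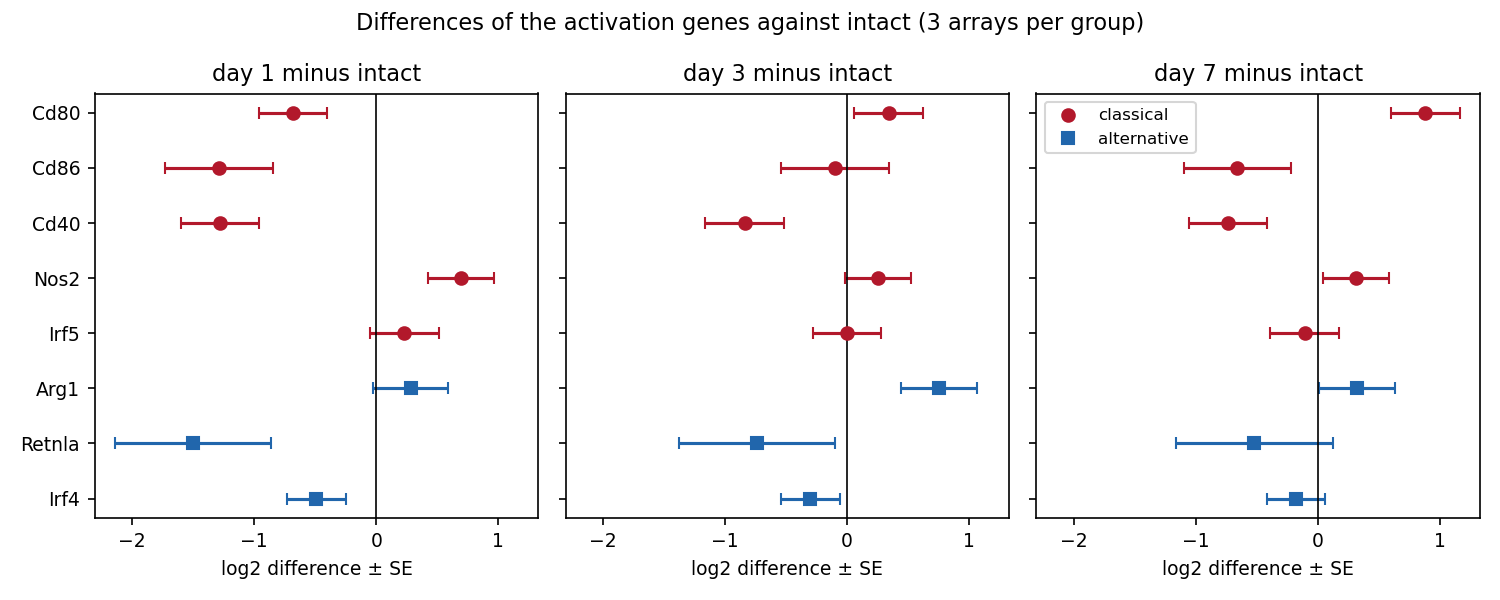
Log2 difference from intact for each member at days 1, 3 and 7, with the SE from limma as error bars. Cd80 is negative at day 1 (-0.68) and positive at day 7 (0.88), Cd40 is negative at all 3 days (-1.28, -0.84 and -0.74), and no difference passed the adjusted threshold.

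Counted over the set without adjustment, day 1 held the most members with an unadjusted p under 0.05 in limma. At day 1 there were 1 higher (Nos2) and 4 lower (Cd80, Cd86, Cd40 and Retnla) of 8, where 3.04% of all probe sets were higher and 5.9% lower by the same rule. At day 3 there were 1 higher (Arg1) and 1 lower (Cd40), beside 1.96% and 2.5% of probe sets, and at day 7 there were 1 higher (Cd80) and 1 lower (Cd40), beside 1.95% and 3.74%. At day 3 against day 1, Cd80 and Cd86 were higher and none lower by this rule (6.32% and 3.28% of probe sets), at day 7 against day 1 Cd80 was higher and none lower (3.81% and 2.93%), and no member was at day 7 against day 3 (2.03% higher and 3.1% lower). In the F test it was met by Cd80, Cd86 and Cd40, beside 7.34% of probe sets. All 3 comparisons with intact share the intact arrays. The control bioB also set all day 1 and day 7 arrays apart from the intact arrays, and its part in these counts was not tested.

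By overlap of the groups, 0 members were all higher and 3 all lower at day 1 (Cd86, Cd40 and Retnla), beside 7.42% and 8.94% of probe sets. At day 3, 2 were all higher (Nos2 and Arg1) and 0 all lower, beside 7.19% and 6.68%. At day 7, 2 were all higher (Nos2 and Cd80) and 1 all lower (Cd40), beside 6.11% and 8.15%. At day 3 against day 1, Cd80 and Cd86 were all higher and 0 members all lower, beside 7.03% and 6.24%, and at day 7 against day 1 Cd80 was all higher and 0 all lower, beside 4.55% and 4.66%. At day 7 against day 3, 0 were all higher and 1 all lower (Cd86), beside 4.84% and 5.69%. The members so counted at days 3 and 7 include Nos2 and Arg1, which were never above the intron limit.

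The medians of the classical and the alternative members were both at or below 0 at each day with all arrays included, but not in every fit that left out 1 array. The median log2 difference from intact over the 5 classical members was -0.68 at day 1, 0.00 at day 3 and -0.11 at day 7, and over the 3 alternative members it was -0.49, -0.30 and -0.18. The median over all probe sets was -0.01, 0.00 and -0.01 at the same days. Per array, the classical median deviation from the intact mean was 0.05, -0.01 and 0.05 in intact mice, -0.64, -0.96 and -0.23 at day 1, 0.14, -0.07 and 0.19 at day 3, and -0.34, 0.19 and -0.27 at day 7. The alternative median was -0.16, -0.17 and 0.03 in intact mice, -0.21, -0.86 and -0.48 at day 1, 0.32, -0.46 and -0.13 at day 3, and -0.16, -0.17 and -0.14 at day 7. Both medians were below every intact array on all 3 day 1 arrays, and day 1 replicate 2 was lowest in both. Without intact replicate 1 the alternative medians at days 1, 3 and 7 were -0.23, -0.04 and 0.08, and the classical median at day 7 was -0.41 without day 7 replicate 2 and 0.10 without day 7 replicate 1. These medians are descriptions with no test, and of the members only Cd80 was above the highest intron limit of all arrays on 3 or more of them.

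**Figure D4:**
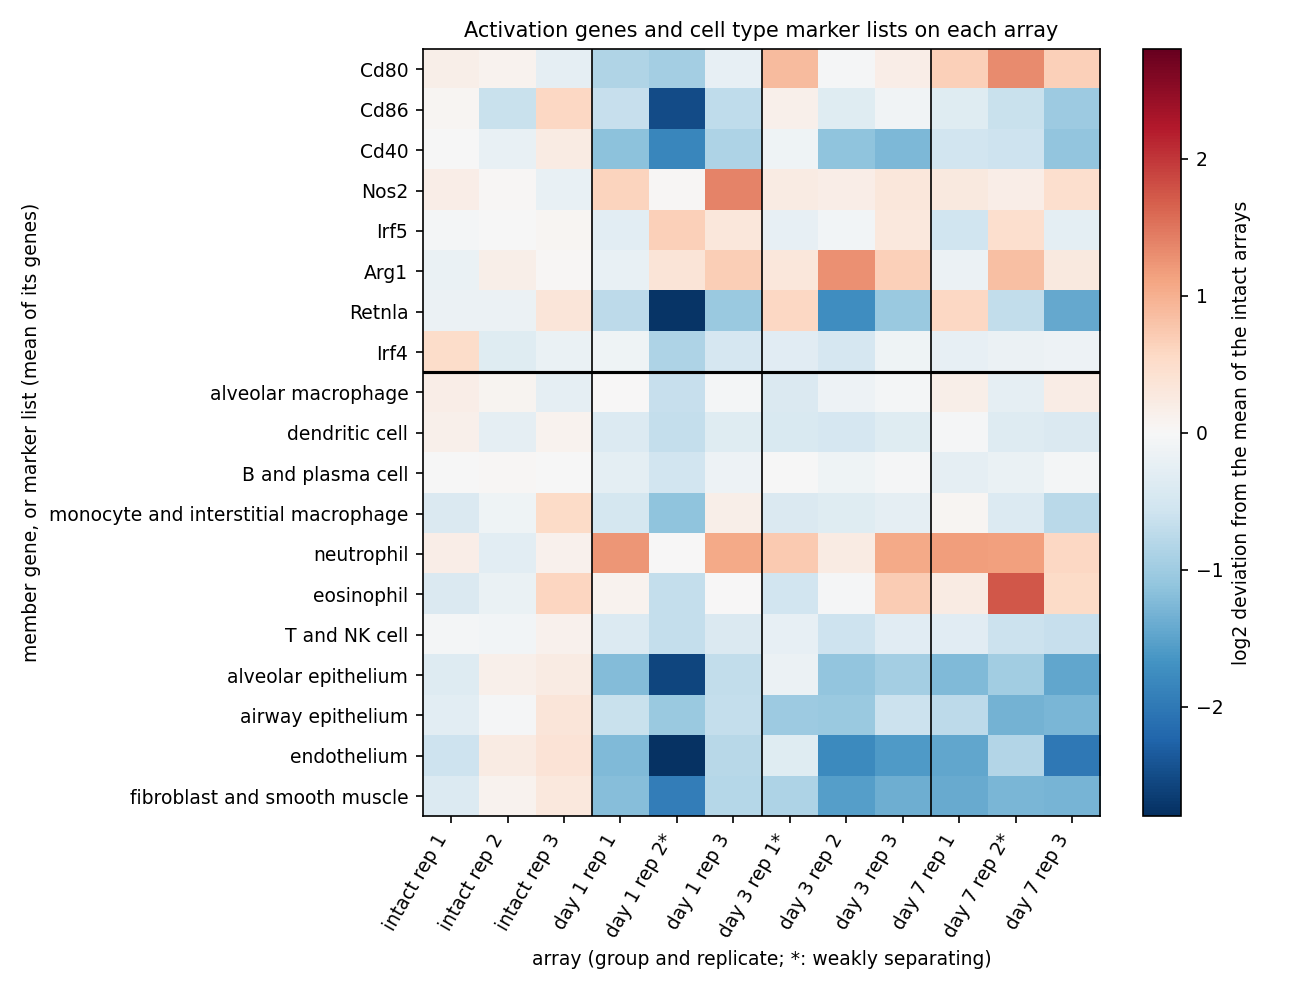
Deviation from the intact mean on each array (columns) as colour on the log2 scale, red above and blue below 0, for each member and, under the thick line, for the mean of each cell type marker list. Stars mark the weakly separating arrays. At day 1 the median deviation was -0.96 to -0.23 for classical and -0.86 to -0.21 for alternative members, and members of both classes take both signs at days 3 and 7.

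The genes around the members gave the same picture of differences that did not pass. Of the interferon-gamma list (the cytokine, its receptors and signalling), 9 of 10 genes were measured and 0 passed at any day. At day 1, 8 of 9 differences were negative, beside 11439 of 22206 over all probe sets. The mean of the list deviated from intact by -0.37, -0.90 and -0.17 on day 1 replicates 1, 2 and 3, of which replicate 2 is weakly separating. Ciita, the master regulator of MHC class II genes, differed from intact by -1.05 ± 0.22 at day 1 (SE, adjusted p 0.242 in limma). At days 3 and 7 it differed by -0.41 and -0.40. Socs1, an inhibitor of cytokine signalling, differed by -0.53, -0.43 and -0.69 at days 1, 3 and 7. Jak2 differed by -0.63, 0.04 and -0.07, and Irf1 by -0.52, -0.58 and -0.49. Ciita and Socs1 were below the intron limit on all 12 arrays. Of other classical targets, 19 of 22 genes were measured and 0 passed. Their medians at days 1, 3 and 7 were -0.57, -0.28 and -0.22. Negative differences numbered 18, 17 and 15, beside 11439, 11034 and 11473 of 22206 over all probe sets. The mean of the list deviated from intact by -0.24, -1.54 and 0.03 on day 1 replicates 1, 2 and 3, so replicate 3 was not below the intact mean. The chemokine Ccl5 differed by -1.16, -1.38 and -1.64 with an SE of 0.28 (adjusted p 0.27, 0.211 and 0.14 in limma). Cxcl10, an interferon-induced chemokine, differed by -0.98, -1.44 and -1.02. Ccl5 was below the intron limit on all 12 arrays, and Cxcl10 was above it on all 12. Tnf, measured on all arrays above the intron limit, differed by -0.12, -0.74 and -0.04. Ido1, an enzyme of tryptophan breakdown that was below the limit on all 12 arrays, differed by -0.49, 0.15 and -0.38.

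Of the interleukin 4 and 13 list, 10 of 12 genes were measured and 0 passed, with medians of -0.25, -0.16 and -0.02 at days 1, 3 and 7. The mean of the list deviated from intact by -0.08, -0.62 and -0.05 on day 1 replicates 1, 2 and 3. Kdm6b, a histone demethylase, differed by -0.47, -0.30 and -0.07, and Pparg by 0.18, -0.17 and -0.02, both above the intron limit on 12 arrays, whereas Il4 and Il13 themselves were below it on all 12. Of other alternative targets, 20 of 21 genes were measured and 0 passed, with medians of -0.44, -0.21 and -0.14. Their mean deviated from intact by -0.38, -0.85 and -0.20 on day 1 replicates 1, 2 and 3. Vegfa, a growth factor for vessels, differed by -1.40, 0.42 and -0.64 at days 1, 3 and 7. Cish, a feedback inhibitor of cytokine signalling, differed by -0.87, -0.74 and -0.28, and Myc, a regulator of growth, by -1.02, -0.92 and -0.33. Igf1, a growth factor, differed by -0.18, 1.07 and 0.45. Vegfa was above the intron limit on 1 array, Myc on 4, Cish on 5 and Igf1 on 12. All 4 had adjusted p above the threshold at each day.

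The enzymes and carriers of arginine were 16 measured of 17, and 0 passed. Ddah2, which degrades inhibitors of nitric oxide synthases, differed by -0.52, -0.74 and -0.55, and Slc7a1, an arginine carrier, by -0.59, 0.07 and 0.45. Both were below the intron limit on all 12 arrays. Sat1, an enzyme of polyamine breakdown, differed by 0.07, 0.38 and -0.30. Gch1, which makes a cofactor of nitric oxide synthases, differed by -0.56, -0.05 and -0.38. Of the costimulatory list, 16 of 17 genes were measured and 0 passed, with medians of -0.16, -0.18 and -0.07. Icos, a receptor of activated T cells, differed by -1.38, -1.25 and -1.77 ± 0.27 (SE), with the smallest adjusted p of the list at day 7 (0.0852), and was below the intron limit on all 12 arrays. Its ligand Icosl, above the limit on all 12, differed by 0.56, -0.01 and 0.18. Cd28 differed by -0.69, -0.50 and -0.66, and Pdcd1, another T cell receptor, by 0.14, -0.24 and -0.04. Cd28 and Pdcd1 were below the limit on all 12.

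Relatives of Irf4 and Irf5 numbered 9 measured of 10, with 0 passed and all 9 differences negative at day 1 (median -0.44). Their mean deviated from intact by -0.20, -1.03 and -0.09 on day 1 replicates 1, 2 and 3, of which replicate 2 is weakly separating. At day 1, Irf8, a factor of mononuclear phagocytes, differed by -1.02, and Irf9, a partner of Stat proteins in interferon responses, by -0.48. Irf7 then differed by -0.56 and Irf1 by -0.52. Irf7, Irf8 and Irf9 were below the intron limit on all 12 arrays, and Irf1 was above it on all 12. Of the NAD genes listed beside Cd38, 7 of 8 were measured and 0 passed. At day 7, Trpm2, a channel opened by products of NAD, differed by 1.08, the NAD synthesis genes Nmnat3 and Nampt by 0.53 and -0.43, and Nadk by 0.45. Trpm2 and Nmnat3 were below the intron limit on all 12 arrays. Of the resistin-like relatives of Retnla, 3 of 3 were measured and 0 passed. Retnlg differed from intact by 0.89, 1.14 and 1.21 ± 0.27 (SE), with adjusted p 0.362, 0.397 and 0.286 in limma, opposite in sign to Retnla, while Retn and Retnlb were below the intron limit on all 12 arrays. Retnlg also stands in the neutrophil marker list below.

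**Figure D5:**
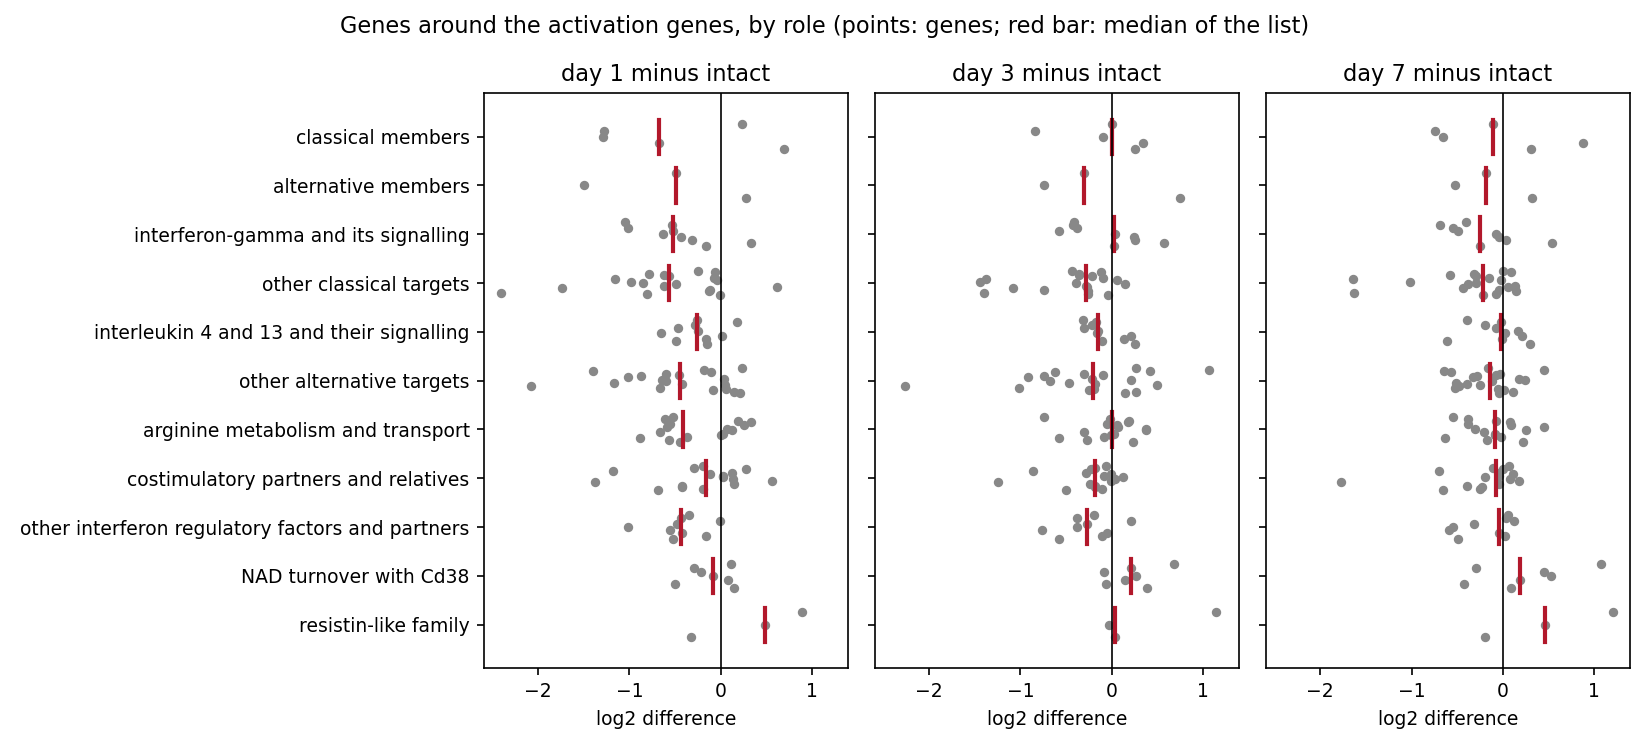
Log2 difference from intact at days 1, 3 and 7 for the members and for each list of related genes, with a point per gene and a red bar at the median. The medians of the other classical targets are -0.57, -0.28 and -0.22, and no gene of these lists passed the adjusted threshold.

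Levels of the markers of other lung cells were also unequal between groups. In a bulk sample, fewer cells of a type and less RNA per cell cannot be told apart. Dendritic and B cells carry Cd80, Cd86 and Cd40 as well. Of 11 dendritic cell markers 9, 10 and 9 were lower at days 1, 3 and 7, 0 passed and 0 had a mean above the intron limit. Their summed linear signal was 164 to 205 in intact mice, 101 to 157 at day 1, 142 to 162 at day 3 and 130 to 221 at day 7. Defining markers Flt3 and Zbtb46 were at background, with means of 2.33 to 2.49 and 2.81 to 2.95 over the groups. The others were not all as flat: at day 1 Cd209a differed from intact by -1.37, Xcr1 by -0.89, Ccr7 by -0.87, Fscn1 by -0.83 and Clec9a by -0.74, and the list's median was -0.35, none past the threshold. Of 10 measured of 11 B and plasma cell markers, 9, 7 and 8 were lower and 0 had a mean above the limit, with sums of 117 to 131 in intact mice, 74 to 110 at day 1, 128 to 141 at day 3 and 105 to 140 at day 7. Their part in the day 1 values of Cd80, Cd86 and Cd40 was not tested.

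Airway epithelium, a known source of Retnla in mouse lung, had 8 measured of 9 markers, of which 7 were lower at each day and 0 passed. Their sum was 1563 to 3544 in intact mice, 976 to 1303 at day 1, 733 to 1233 at day 3 and 565 to 951 at day 7. Alveolar epithelium markers were lower for 12, 11 and 12 of 12 at days 1, 3 and 7, and summed to 2889 to 4198 in intact mice, 400 to 2268 at day 1, 1433 to 2284 at day 3 and 1100 to 1794 at day 7. Of these, the surfactant protein gene Sftpd fell by 1.98 at day 7 (adjusted p 0.00965 in limma), with all 12 values below the intron limit. All resected arrays thus had lower sums of both epithelial lists than any intact array. By the mean log2 signal of the list this held for airway epithelium, with 5.88 at most after resection and 6.19 at least in intact mice. It did not hold for alveolar epithelium, where day 3 replicate 1 (6.79) was above intact replicate 1 (6.59).

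Endothelial markers were lower for 9 of 9 at each day, with 0 passed, and summed to 754 to 1445 in intact mice, 143 to 701 at day 1, 295 to 1023 at day 3 and 283 to 697 at day 7. Fibroblast markers were lower for 10 of 10 at each day, and summed to 357 to 762 in intact mice, 109 to 322 at day 1, 152 to 385 at day 3 and 159 to 181 at day 7. Of these, the collagen gene Col3a1 fell by 2.37 at day 3 (adjusted p 0.0135) and fell by 2.10 at day 7 (adjusted p 0.0249), and the matrix gene Dpt fell by 2.23 at day 7 (adjusted p 0.0271), in limma, again with all values of both genes below the intron limit. Monocyte and interstitial macrophage markers, 10 measured of 12, were lower for 7, 5 and 6 at days 1, 3 and 7, with 0 passed, and summed to 879 to 1889 in intact mice, 305 to 1122 at day 1, 559 to 694 at day 3 and 469 to 723 at day 7.

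Neutrophil markers, 12 measured of 13, went the other way and were higher for 10, 9 and 11 at days 1, 3 and 7, with 0 passed. They summed to 3268 to 5076 in intact mice and 5236 to 10244 at day 1. The sums were 6591 to 10177 at day 3 and 7787 to 11265 at day 7, so no array after resection had a sum as low as an intact one. The mean log2 signal of the list did not separate them: day 1 replicate 2 (7.07) was below intact replicates 1 and 3 (7.23 and 7.16). Eosinophil markers, 5 of 5 measured with 0 passed, were higher for 1, 2 and 3 and lower for 4, 3 and 2 at days 1, 3 and 7. They summed to 267 to 719 in intact mice, 407 to 519 at day 1, 168 to 410 at day 3 and 388 to 920 at day 7, and the sum does not show how they diverged. The eotaxin receptor Ccr3 differed from intact by 2.14 at day 3 and 2.71 at day 7 (adjusted p 0.385 and 0.14 in limma), and Il5ra, a receptor chain for interleukin 5, by 1.57 and 1.24 (adjusted p 0.187 and 0.312), whereas the granule protein genes Epx and Prg2 differed by -1.53 and -1.55 at day 3 and both by -0.27 at day 7. Prg2 was above the intron limit on 9 of 12 arrays, but Ccr3 and Epx on 1 each and Il5ra on 0. T and NK cell markers, 12 of 12 measured with 0 passed, summed to 190 to 249 in intact mice, 103 to 153 at day 1, 185 to 208 at day 3 and 124 to 160 at day 7. Their part in the values of Retnla and of the other members was not tested.

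Cd80 was the 1 member with a mean above the highest intron limit, so the genes most like it were sought for it alone. Over the 12 arrays and 19497 other genes, its Pearson correlation was highest with Erc2 (0.95), Ncapg2 (0.92) and Tmem220 (0.89). All 3 averaged below the intron limit, at 4.21, 2.60 and 2.65, and each was lowest on day 1 replicate 2, as was Cd80. The 12 arrays share groups and labelling, so these correlations describe these arrays and carry no test.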

How the data were processed

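Levels in 12 arrays, 3 for each of 4 groups, were the authors' deposited values, log2 signals per probe set. The submitters' processing notes name RMA and the Transcriptome Analysis Console. Versions of these tools and a genome build of the array are not given in the sources used here. The log2 scale was inferred from the range of the deposited values. RMA makes the distributions of the arrays' probe intensities equal before probe sets are summarised, so a shift shared by all genes is largely removed. The distributions of the deposited probe set values were close but not equal, with medians over the tested probe sets of 3.09 to 3.19. The table held 28846 probe sets, of which 6640 controls were left out of the tests and 22206 were tested. Arrays have no read depth, and their number limits the precision.

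Each comparison came from 1 limma model (version 3.58.1, R 4.3.3) over all 12 arrays with the group as the only term and default empirical Bayes moderation. Two-sided p-values were adjusted by Benjamini-Hochberg over all 22206 probe sets, with a threshold of 0.05. The fit was tested on simulated data. Limits of 0.84 for the separation of exon from intron controls and of 5 for dap were set with the arrays' values known.

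The members, the gene lists, the tests and the alternatives were chosen with earlier results of these data known. All 9 members are named. In each pathway list the 4 genes with the smallest p in the F test were named (3 in the list of 3), and for a member above the highest intron limit the 3 genes of highest correlation. Beyond that rule, Sftpd, Col3a1 and Dpt were named after their values were seen because they passed, and so were the dendritic cell and eosinophil markers quoted, apart from the defining markers, the first 2 of each list (Flt3, Zbtb46, Ccr3 and Il5ra here). Dcn, Npnt, Il7r and Gzma were also named after their values were seen, because some lay above the intron limit. Alternatives were quantile normalization, median centring, a filter on dim probe sets, trend and robust moderation, only the groups compared, a replicate block, array weights, leaving out arrays, the labelling control as a block and other thresholds. Promoters came from RefSeq.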

Additional observations from a re-analysis of the deposited data

Results flagged for a closer look

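Cd80 lay on opposite sides of its intact mean at day 7 and at day 1, and this drew it out for a closer look. On the 3 day 7 arrays it was 0.66, 1.33 and 0.66 above the intact mean on the log2 scale, and on the 3 day 1 arrays it deviated by -0.85, -0.96 and -0.23. The difference at day 7 against day 1 was 1.56 ± 0.28 (SE), with an adjusted p of 0.573 in limma, so it did not pass over all probe sets. A gene picked for opposite signs on all arrays of the 2 days cannot overlap between them, so the lack of overlap adds no support. Of all probe sets, 4.55% were higher on all day 7 arrays than on any day 1 array. Both comparisons with intact share the 3 intact arrays. Over the 10 alternatives other than leaving out single arrays, the difference ranged from 1.18 to 1.58, and its adjusted p from 0.189 to 0.995.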

How the results depend on the processing

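Over 30 member results under 22 settings, 619 of 636 values kept their direction and their side of the threshold, 15 changed sign and 2 went past the threshold, with 0.0178 as the smallest adjusted p. Those that passed were Cd40 at day 3 against intact with array weights and without the 3 weakly separating arrays, which made the count of members called 1 instead of 0 there, and 1 in the F test under the same settings. In those fits 1.34% and 1.13% of all probe sets passed at day 3, and 1.62% and 1.27% in the F test. With the unadjusted p, the counts were 5, 2 and 2 at days 1, 3 and 7 against intact, 2 at day 3 against day 1, 1 at day 7 against day 1, 0 at day 7 against day 3 and 3 in the F test. Leaving out each array in turn gave 0 calls in all comparisons.

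Irf5 at day 3 against intact changed sign to 0.033 with quantile normalization, 0.0083 with median centring, 0.10 with array weights, 0.11 without the 3 weakly separating arrays and 0.11 without the 3 arrays with dap, and at day 7 to 0.035 with quantile normalization. Without the arrays with dap, which leaves 1 day 7 array, Arg1 at day 7 was -0.16 and Retnla 0.57. Leaving out single arrays gave -0.15 to 0.11 for Irf5 at day 3, -0.41 to 0.10 for Irf5 at day 7, -0.41 to 0.19 for Cd86 at day 3 and -0.35 to 0.077 for Irf4 at day 7. The cause of these shifts was not tested.

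The classical median at day 7 was -0.41 without the 3 weakly separating arrays and ran from -0.41 (without day 7 replicate 2) to 0.10 (without day 7 replicate 1). Without intact replicate 1 the alternative median at day 7 was 0.08. The dim filter left 2934 probe sets and, of the members, Cd80 alone, so the classical median became its value, 0.34 at day 3 and 0.88 at day 7, and no alternative median could be given. Each member had 1 probe set, so a mean over probe sets gives no other value.

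Replicate numbers did not pair the samples: of 18 pairs of arrays with the same number, 3 had correlated deviations above 0.1 (median -0.046), against 7 of 36 pairs with different numbers (median 0.023). The fit with the replicate block called 0 members in every comparison, and Cd40 at day 1 then had an adjusted p of 0.314. Signal over background limits all members except Cd80.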
